A study of Danio rerio with 24 samples.

Results

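The 7 genes mdm2, tp53inp1, sesn1, sesn3, ccng1, btg2 and gadd45aa, stress-response genes known as targets of the transcription factor p53, were followed in sorted zebrafish primordial germ cells (PGCs), which later give rise to the eggs and sperm. They were taken by gene name as 7 of the 32520 genes listed in each of 4 expression tables, and all 7 had 1 row of their own. Because they were picked with results of these data known, their own differences between groups are given as values, with no test. RNA was profiled in 20 libraries of PGCs sorted by a fluorescent label at 2 stages, 75% epiboly in mid-gastrulation and 1 day post-fertilization (1 dpf). In the knockout experiment, 3 control libraries of wild-type genotype and 3 smad1-cKO libraries, in which smad1 was knocked out in the germline with guide RNAs, were made at each stage. In the knockdown experiment, 2 control-MO and 2 smad1-KD libraries were made at each stage from wild-type embryos injected with a control morpholino or a morpholino against smad1. Morpholinos are antisense oligomers that act on their target RNA in all cells of the embryo, not in the germline alone. All embryos carried the fluorescent germ cell label and were kept in Holtfreter's water. The labels do not say whether the wild-type controls carried any part of the knockout system, and they name no separate clutches, so p-values rest on the spread among the libraries, part of which may be technical. The study asked how BMP signalling through Smad1 bears on PGC proliferation.

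p53 is held low in unstressed cells by Mdm2, a ubiquitin ligase that marks it for breakdown and whose own gene p53 switches on, which closes a negative feedback loop. When DNA damage, ribosome defects or other stress free p53 from this control, it raises genes that halt the cell cycle, adjust metabolism or start cell death. In zebrafish embryos the pathway is also known to respond to DNA breaks made by genome-editing nucleases and to some morpholinos. Among the 7 genes, tp53inp1 encodes a protein that strengthens p53 activity and takes part in autophagy, sesn1 and sesn3 encode sestrins, which restrain the growth kinase complex mTORC1, and ccng1 encodes cyclin G1, which in mammals brings a phosphatase to Mdm2. The gene btg2 encodes an antiproliferative protein that recruits the CCR4-NOT deadenylase to messenger RNAs, and gadd45aa encodes a small stress sensor of the Gadd45 family, which in mammals binds PCNA and the CDK inhibitor p21.

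Levels are TPM, a transcript's share of its library per unit of length, so levels of different genes can be compared. The number of reads behind a TPM is not kept, so depth is unknown. Each library listed between 13371 and 24547 genes above 0. As a check of the labels, smad1 stood lower in every treated library than in every control library of all 4 comparisons, with means of 138 TPM in control and 13.5 TPM in smad1-cKO PGCs at 1 dpf. At that stage in the knockdown the means were 197 and 120 TPM. Among all genes tested in the knockdown, 14.9% at 75% epiboly and 34.7% at 1 dpf also stood lower in every treated library. The shares in the knockout were 3.36% and 5.78%, so separation is the weaker check in the knockdown. Same-numbered log2 differences of smad1 in the knockdown at 1 dpf were -0.24 and -1.44, beside a median of -0.38 over all genes. All 12 germ cell genes of the marker list with a row of their own were detected in each group. Their summed level at 1 dpf was 14319 to 21749 TPM in the knockout experiment and 1104 to 5349 TPM in the knockdown experiment. Fewer cells of a type and less RNA per cell cannot be told apart in such bulk libraries. Differences were fitted with limma on log2(TPM + 1), which understates the differences of genes with low levels. At an adjusted p under 0.05 over all genes tested, limma called 1 gene, smad1, in the knockout at 1 dpf (0.00569%) and 0 genes (0.00%) in each of the other 3 comparisons. At an unadjusted p under 0.05 it found 1122 genes in the knockout at 1 dpf and 236 at 75% epiboly, and 1697 and 164 in the knockdown.

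At 1 dpf all 7 genes had a higher mean in smad1-cKO than in control PGCs, by 1.65- to 4.25-fold. Of the 7 genes, 5 did not overlap between the groups: tp53inp1, sesn1, sesn3, btg2 and gadd45aa. Among all 17573 genes tested, 5.66% had every smad1-cKO library above every control library and 48.3% had a log2 difference above 0. The median log2 difference was 0.99 over the 7 genes and -0.01 over all genes tested.

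**Figure D1:**
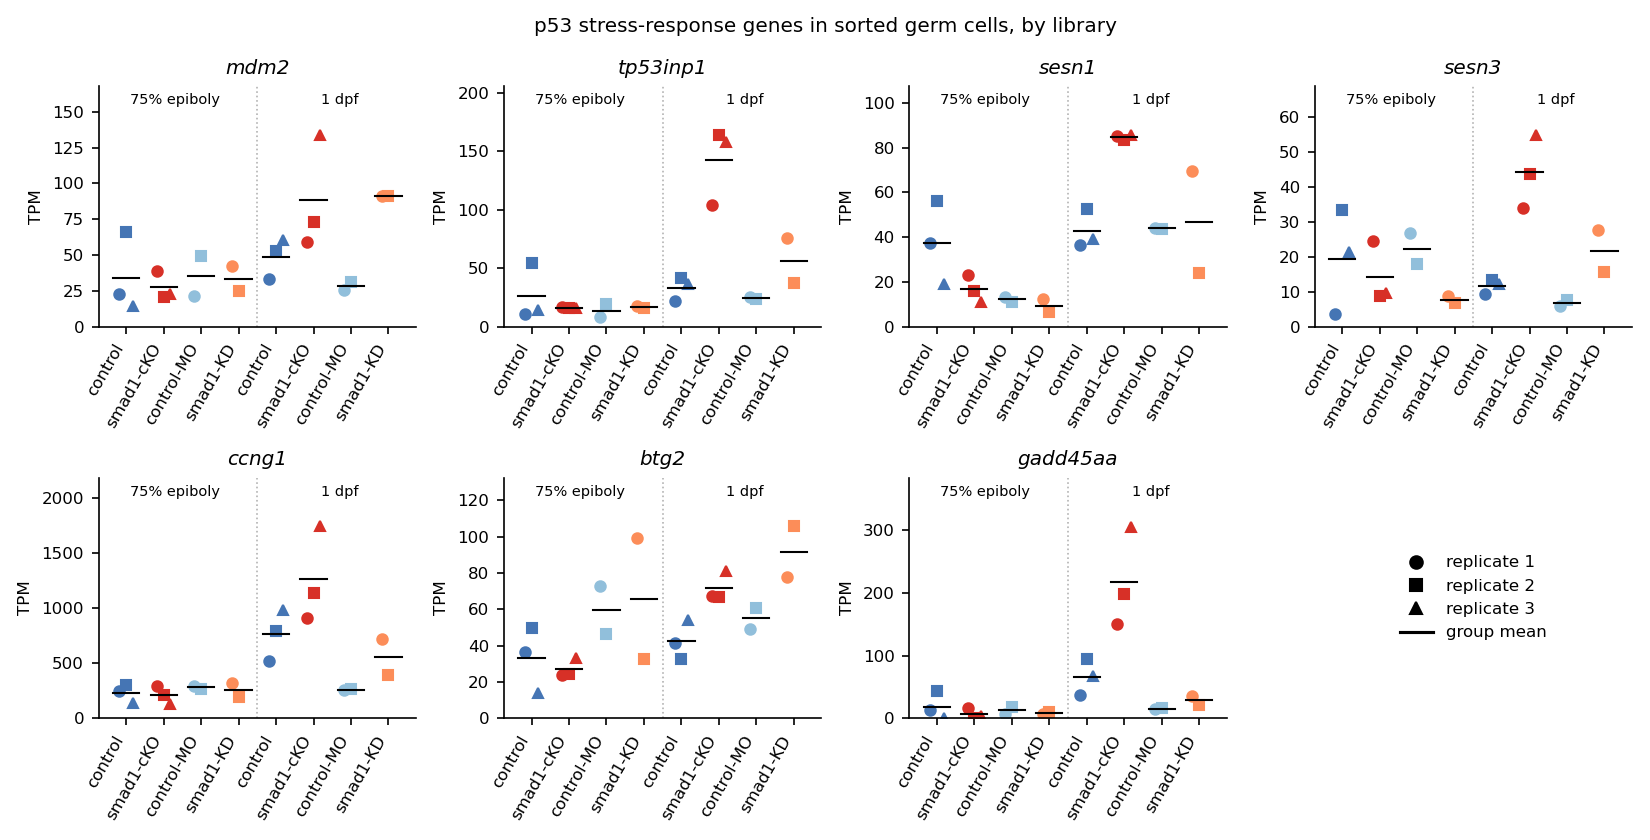
Each panel plots TPM, on a linear axis from 0, of 1 gene in the 20 libraries, with 1 point per library, its shape giving the replicate number, and a line at the group mean, and with 75% epiboly left and 1 dpf right of the dotted line. The smad1-cKO libraries at 1 dpf are the highest points of the tp53inp1, sesn3 and gadd45aa panels, where they reach 164, 54.9 and 305 TPM.

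Of the feedback genes, mdm2 stood at 33.6, 52.7 and 60.4 TPM in the control libraries of replicates 1, 2 and 3, and at 59.1, 72.7 and 134 TPM in the smad1-cKO libraries. The groups overlapped only through smad1-cKO replicate 1, which lay just under control replicate 3. The log2 difference was 0.80 (SE 0.32), with means of 48.9 ± 13.8 and 88.6 ± 39.9 TPM (SD, n = 3 each).

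Levels of ccng1 were 516, 794 and 979.8 TPM in the controls and 908, 1138 and 1739.5 TPM in the smad1-cKO libraries. Here too smad1-cKO replicate 1 lay under control replicate 3, and the other 2 smad1-cKO libraries lay above all controls. The log2 difference was 0.72 (SE 0.27).

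The p53 cofactor gene tp53inp1 was at 21.6, 41.8 and 37.0 TPM in control PGCs, and at 104, 164 and 158 TPM in the smad1-cKO libraries. The lowest smad1-cKO library was 2.495-fold above the highest control, and the means were 33.5 ± 10.5 and 142 ± 32.8 TPM (SD, n = 3 each). Its log2 difference of 2.08 (SE 0.28) was the highest of the 7 genes and exceeded that of 99.6% of all genes tested.

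Both sestrin genes were separated between the groups. Levels of sesn3 were 9.43, 13.5 and 12.3 TPM in the controls and 34.1, 43.8 and 54.9 TPM in the smad1-cKO libraries, a 3.77-fold higher mean and a log2 difference of 1.82 (SE 0.26). Levels of sesn1 were 36.5, 52.7 and 39.2 TPM in the controls and 85.4, 83.4 and 85.7 TPM in the smad1-cKO libraries. The smad1-cKO values of sesn1 lay close together, with an SD of 1.25 TPM (n = 3), while the controls had an SD of 8.71 TPM (n = 3). The log2 difference of sesn1 was 0.99 (SE 0.19).

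Of the growth-arrest genes, gadd45aa was at 36.3, 94.2 and 66.8 TPM in control PGCs, and at 150.1, 198 and 305 TPM in the smad1-cKO libraries. Its log2 difference was 1.75 (SE 0.35), with means of 65.8 ± 29.0 and 218 ± 79.3 TPM (SD, n = 3 each). For btg2 the control libraries held 41.3, 32.7 and 53.8 TPM and the smad1-cKO libraries 67.0, 66.6 and 81.2 TPM, without overlap and with a log2 difference of 0.76 (SE 0.22). The gap was narrow, as the lowest smad1-cKO library of btg2 was 1.24-fold above the highest control.

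Libraries with the same replicate number deviated together, though weakly, from their group means in the knockout at 1 dpf (correlations 0.265, 0.105 and 0.272). They were taken as pairs for the differences below and for the fit with a block. The SE and the adjusted p given without the block come from the fit without pairs. All 21 same-numbered differences of the 7 genes were above 0, from 0.46 for mdm2 in replicate 2 to 2.22 for tp53inp1 in replicate 1 on the log2 scale. Among all genes tested, 14.2% had all 3 same-numbered differences above 0. The highest of the 6 libraries was smad1-cKO replicate 3 for 6 of the 7 genes, against 17.2% of all genes tested, and tp53inp1 was highest in smad1-cKO replicate 2. The lowest was control replicate 1 for 6 of the 7 genes, against 17.7% of all genes tested, while btg2 was lowest in control replicate 2. With the replicate number as a block, limma called 14 genes (0.0797%), 12 of them higher (0.0683% of the genes tested). They include 2 of the 7 genes, tp53inp1 and sesn3. Nothing is read from these calls, from the same-numbered differences or from the highest and lowest libraries, since the genes were picked with this comparison known.

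The CDK inhibitor gene cdkn1a, which encodes p21, had 72.6, 110.0 and 118 TPM in control libraries, against 145, 164 and 297 TPM with smad1-cKO. The groups did not overlap, with a log2 difference of 0.96 (SE 0.28) and an adjusted p in limma of 0.499. The mdm2 relative mdm4, which encodes another inhibitor of p53, had overlapping groups around means of 30.5 and 25.6 TPM (log2 difference -0.27, SE 0.23).

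The p53-related genes tp63 and tp73 were low in the controls. For tp63, a regulator of epidermis, the controls held 0.972, 0.670 and 0.238 TPM and the smad1-cKO libraries 10.5, 19.8 and 0.293 TPM. Its log2 difference was 2.08, but the groups overlapped, as smad1-cKO replicate 3 was near the controls. The 3 controls of tp73 reached at most 0.603 TPM and the smad1-cKO libraries 3.18 TPM, with overlap. Of the 13 tested genes in the list of p53 relatives and regulators, 7 had a difference above 0, the median was 0.05, and limma called 0 with or without the block, although 2 had an unadjusted p under 0.05. The checkpoint kinase gene chek1 had means of 25.2 and 59.0 TPM without overlap (log2 difference 1.15, SE 0.27, adjusted p in limma 0.341). The ubiquitin ligase gene rchy1, at 373 and 363 TPM, and the acetyltransferase gene kat5b, at 52.2 and 53.5 TPM, had overlapping groups.

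**Figure D2:**
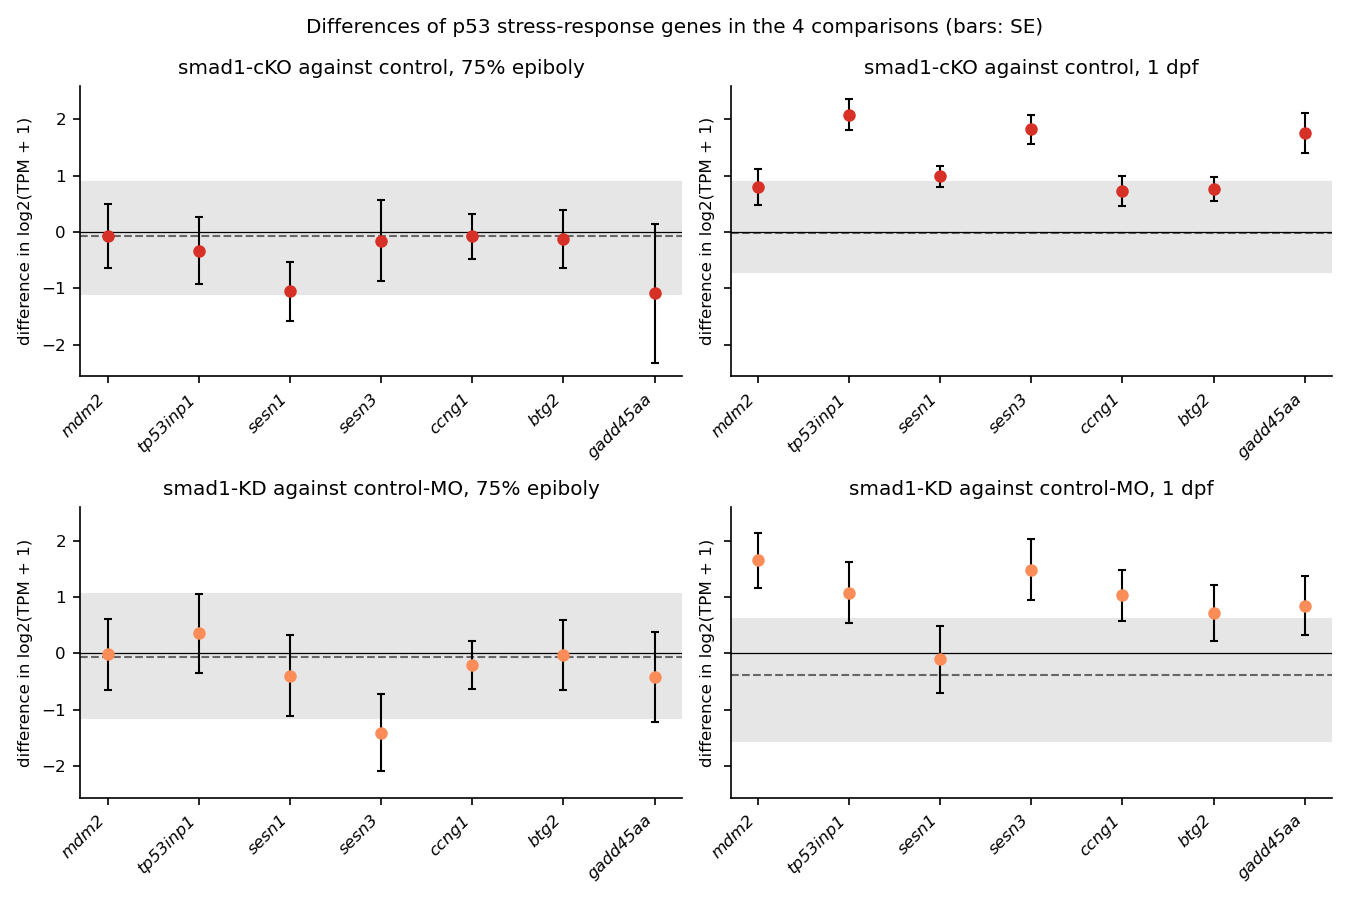
Points give the difference in log2(TPM + 1), treated minus control, of the 7 genes in the 4 comparisons, with bars for the SE from limma, the middle 90% of all genes tested in grey and their median as a dashed line. At 1 dpf the knockout points lie between 0.72 and 2.08, and those at 75% epiboly are near or below 0 except, in the knockdown, tp53inp1 at 0.36.

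Paralogues of the 7 genes did not all share their direction at 1 dpf in the knockout. Among the sestrins, sesn2 had 106, 94.1 and 114 TPM in the controls and 86.0, 71.2 and 128 TPM in the smad1-cKO libraries, with overlap and a log2 difference of -0.18 (SE 0.22). In the controls sesn2 was thus the most abundant sestrin, and in the smad1-cKO PGCs sesn1, at a mean of 84.8 TPM, was close to sesn2 at 95.04 TPM. In the Gadd45 family, gadd45ga went from a mean of 30.1 to 79.3 TPM without overlap (log2 difference 1.42, SE 0.33, adjusted p in limma 0.324). By contrast, gadd45ab stood lower in all smad1-cKO libraries (log2 difference -0.63, SE 0.26, adjusted p in limma 0.754), and gadd45ba had overlapping groups (-0.01, SE 0.31). For gadd45bb the groups were separated upward by a narrow gap, at 21.6, 28.2 and 27.9 TPM in the controls and 29.97, 29.9 and 56.6 TPM in the smad1-cKO libraries (0.51, SE 0.28, adjusted p in limma 0.853).

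The relatives of btg2, ccng1 and tp53inp1 included separated and overlapping genes. For btg1, an antiproliferative gene like btg2, the controls held 44.0, 72.4 and 51.5 TPM and the smad1-cKO libraries 109, 119 and 141 TPM. Its log2 difference was 1.15 (SE 0.21), with an adjusted p of 0.187 in limma and 0.0858 with the block. For btg3 the groups overlapped (0.19, SE 0.17), as they did for ccng2, the relative of ccng1, at 122 and 131 TPM. Levels of tp53inp2, the relative of tp53inp1 with a role in autophagy, were 23.8, 19.7 and 15.1 TPM in the controls and 71.5, 43.1 and 27.1 TPM in the smad1-cKO libraries, without overlap (1.15, SE 0.34, adjusted p in limma 0.520).

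**Figure D3:**
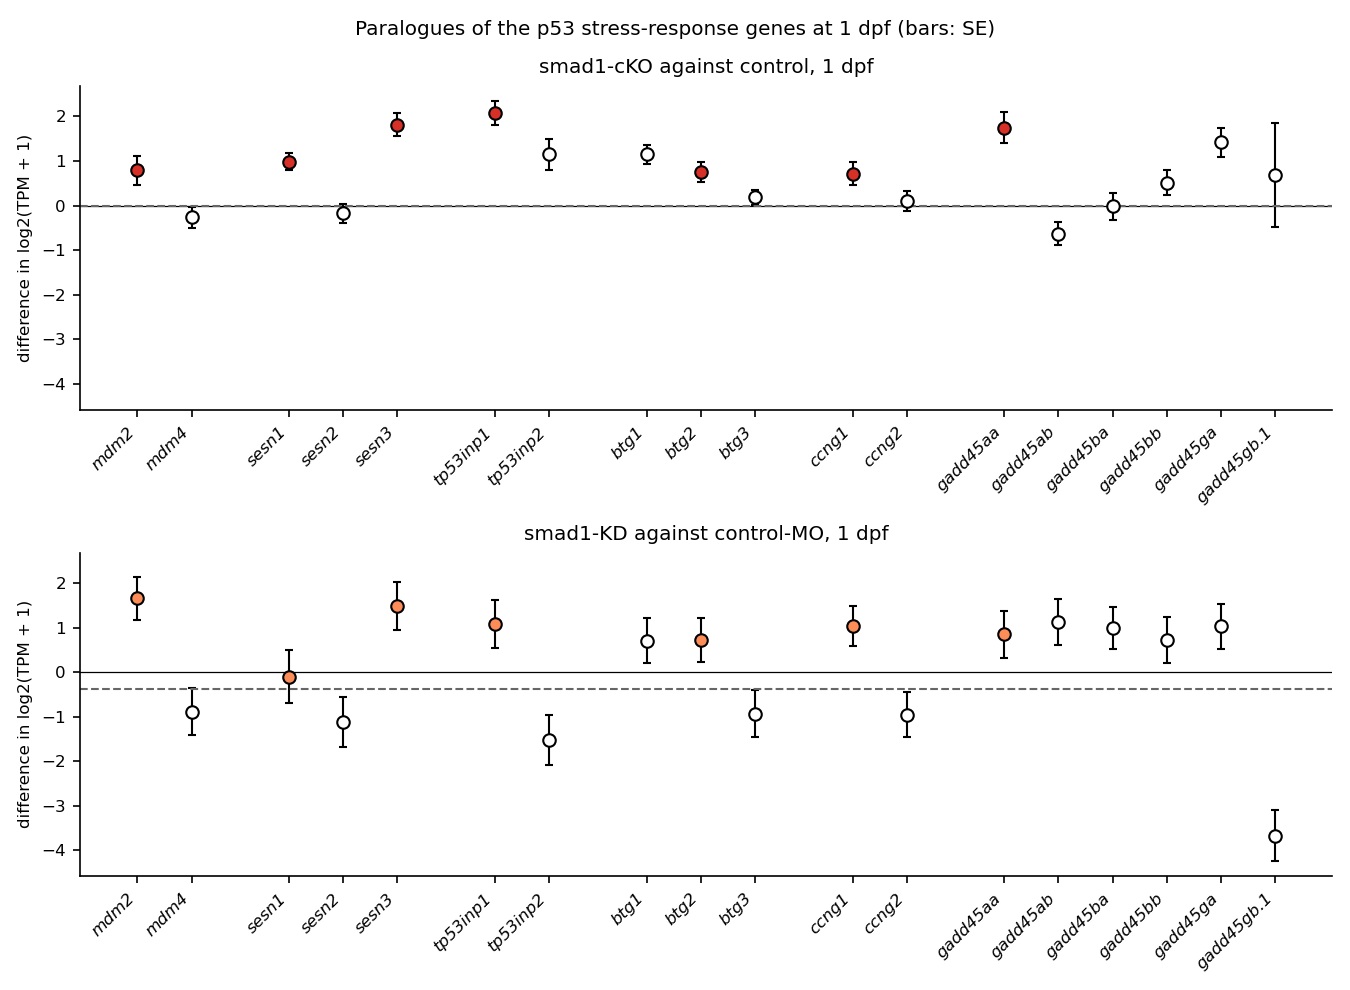
Differences in log2(TPM + 1) at 1 dpf with SE bars are plotted for the genes and their paralogues, grouped by family, with filled points for the 7 genes, open points for the paralogues and a dashed line at the median of all genes tested. In both experiments mdm2 and sesn3 lie above their relatives mdm4 and sesn2, and gadd45gb.1 in the knockdown is the lowest point, at -3.67.

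A wider list of 46 other p53 targets with a row of their own was examined, of which 44 were tested in the knockout at 1 dpf. Of these, 29 had a difference above 0 and 15 below, with a median of 0.23 on the log2 scale. This list, like the other gene lists, was chosen with earlier results of these data known. Its counts beside the shares of all genes, here and below, are therefore descriptions and no independent support. All smad1-cKO libraries lay above all controls for 16 of them, against 5.66% of all genes, and below all controls for 4, against 5.78%. Limma called 0 of the 44 with or without the block, and 14 had an unadjusted p under 0.05, against 6.38% of all genes.

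Among the targets that act in cell death, 10 of 12 tested were above 0, with a median of 0.40. The BH3-only gene bbc3, which encodes Puma, was at 4.91, 6.13 and 5.65 TPM in control PGCs, and at 18.7, 21.1 and 40.0 TPM in the smad1-cKO libraries. Its log2 difference of 1.998 (SE 0.33) had an adjusted p of 0.168 in limma and 0.0753 with the block. The initiator caspase gene casp8 had means of 16.8 and 50.6 TPM, without overlap (1.45, SE 0.31, adjusted p in limma 0.244). For pmaip1, which encodes the BH3-only protein Noxa, the means were 39.9 and 60.2 TPM (0.56, SE 0.21). In the other direction, triap1, which encodes an inhibitor of apoptosis, stood lower in all smad1-cKO libraries, at means of 80.7 and 62.6 TPM (-0.36, SE 0.17, adjusted p in limma 0.812). For ei24 the groups overlapped at 42.6 and 53.5 TPM.

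Of the 28 tested targets that act in arrest and stress, 17 were above 0, with a median of 0.21. The most abundant was rps27l, a ribosomal protein gene, with 826, 1440.4 and 1323 TPM in control PGCs and 1728, 1859 and 2839 TPM in the smad1-cKO libraries (0.84, SE 0.23, adjusted p in limma 0.462). For phlda3, which encodes an Akt inhibitor, the controls held 54.4, 192 and 159 TPM and the smad1-cKO libraries 243, 309 and 503 TPM (1.49, SE 0.44, adjusted p in limma 0.494). The forkhead gene foxo3b had means of 8.36 and 30.7 TPM without overlap (1.74, SE 0.44, adjusted p in limma 0.379). All 3 genes were separated between the groups. Targets in DNA repair were split, with 2 of the 4 tested above 0. Their values were -0.33 for ddb2, -0.03 for xpc, 0.23 for polh and 0.36 for rrm2b.

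For 4 further lists, of partners and other stress responses, the medians were near that of all genes. The gene sesn2 is both in the integrated stress response list and among the other p53 targets. Of the 12 tested partners of the sestrins, in the GATOR complexes and AMP-activated kinase, 4 were above 0, with a median of -0.10. All smad1-cKO libraries lay below all controls for 3 of the 12, against 5.78% of all genes, and above for 0, against 5.66%. The GATOR2 component sec13 was separated downward by a narrow gap, at means of 81.2 and 71.7 TPM. For seh1l, also of GATOR2, the groups overlapped at means of 75.3 and 63.2 TPM. Of the 13 tested genes of the CCR4-NOT deadenylase and its poly(A)-binding partners, 9 were above 0, with a median of 0.11, and pabpc1a, the most abundant, had means of 225 and 271 TPM. For the 11 tested genes of the integrated stress response, 3 were above 0, with a median of -0.07. One of them was separated between the groups, ddit3, which encodes the factor CHOP, at 7.30, 12.97 and 6.30 TPM in the controls and 38.0, 41.4 and 20.3 TPM in the smad1-cKO libraries (1.79, SE 0.36, adjusted p in limma 0.209 and 0.0616 with the block). The 18 tested immediate-early genes, which respond to handling and sorting, had 9 above 0 and a median of -0.00. Their summed level was 346 to 839 TPM in the controls and 449 to 628 TPM in the smad1-cKO libraries. Limma called 0 genes of any of these 4 lists, with or without the block.

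Markers of other cell types stood beside these results. Their median log2 differences were 2.08 for skin, 1.86 for blood and 0.86 for endoderm, yolk and liver. The medians were 0.36 for muscle and 0.34 for neural markers, against -0.01 over all genes tested. Skin markers had a difference above 0 for 16 of 17 tested genes, and their summed level was 5368, 549 and 411 TPM in controls 1, 2 and 3 and 7187, 8501 and 455 TPM in the smad1-cKO libraries. No skin marker was at 0 in all libraries of either group. Blood markers summed to 19.1 to 71.0 TPM in the controls and 21.5 to 140 TPM in the smad1-cKO libraries, with the erythroid regulator gata1a and the globin hbbe2 at 0 in all 6 libraries and hbae1.1 and cahz at 0 in all controls. The endoderm, yolk and liver markers summed to 110 to 169 TPM and 165 to 438 TPM, of which 4 of 18 were at 0 in all controls (apoa1b, apoa4b.1, sox32 and serpina1l) and 3 in all smad1-cKO libraries (ttr, sox32 and foxa3). Muscle markers summed to 72.9 to 149 TPM and 112 to 469.7 TPM, with tnni2a.4 at 0 in all 6 libraries, myf5 in all controls and pvalb1 in all smad1-cKO libraries. The neural markers, none of which was at 0 in all libraries of either group, summed to 32.8 to 227 TPM and 77.3 to 238 TPM. In replicate 3 the skin sums were 411 and 455 TPM and the blood sums 24.8 and 21.5 TPM. The neural sums there were 177 and 77.3 TPM, the muscle sums 147 and 112 TPM, and the endoderm, yolk and liver sums 141 and 165 TPM. In replicate 1 the control and smad1-cKO sums were 19.1 and 140 TPM for blood and 149 and 469.7 TPM for muscle. They were 227 and 238 TPM for neural and 110 and 253 TPM for endoderm, yolk and liver markers. In replicate 2 the sums were 71.0 and 65.6 TPM for blood and 72.9 and 132 TPM for muscle. They were 32.8 and 137 TPM for neural and 169 and 438 TPM for endoderm, yolk and liver markers. The log2 differences of the 7 genes ran from 0.69 (btg2) to 2.22 (tp53inp1) in replicate 1. They ran from 0.46 (mdm2) to 1.94 (tp53inp1) in replicate 2 and from 0.58 (btg2) to 2.17 (gadd45aa) in replicate 3. The 13 features of the mitochondrial genome summed to 21168 to 23090 TPM in the controls and 18375 to 19157 TPM in the smad1-cKO libraries, lower in every smad1-cKO library. The part of other cell types and of mitochondrial RNA in the differences of the 7 genes was not tested.

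**Figure D4:**
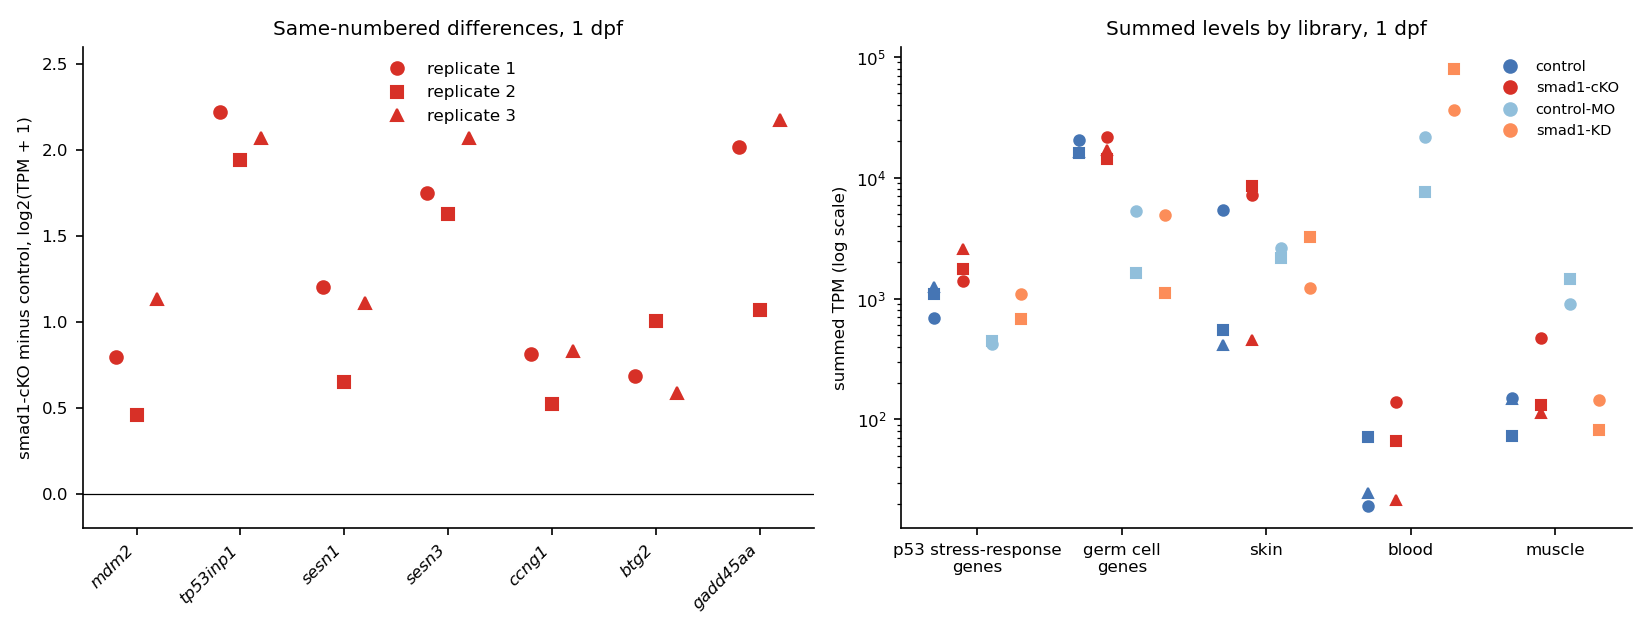
Left, differences of same-numbered libraries at 1 dpf, smad1-cKO minus control in log2(TPM + 1), with 1 point per replicate number. Right, summed TPM on a log scale of the 7 genes and of marker lists in each 1 dpf library, coloured by group, where blood markers reach 79582 TPM in the knockdown and the 7 genes sum to 1408 to 2559 TPM in smad1-cKO PGCs.

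One of the 4 libraries of the knockdown at 1 dpf stood apart, as smad1-KD replicate 2 was the lowest for 67.5% of the genes tested and each of the others for 4.70% to 14.2%. In this comparison, 6 of the 7 genes stood higher in both smad1-KD libraries than in both control-MO libraries, by 1.66- to 3.21-fold in the mean, and sesn1 overlapped. Among all 17141 genes tested, 5.57% had both smad1-KD libraries above both control-MO libraries and 34.7% had both below. The log2 differences of all genes were centred on -0.38 in this comparison, with 23.8% above 0, so values are also given relative to that median. Over the 7 genes the median difference was 1.03. Without smad1-KD replicate 2 it was 1.47, with a median of -0.08 over all genes, and without smad1-KD replicate 1 it was 0.59. Each fit without 1 of them rests on a lone smad1-KD library. With smad1-KD replicate 2 left out the values were 1.65 for mdm2, 1.58 for tp53inp1, 0.65 for sesn1, 1.87 for sesn3, 1.47 for ccng1, 0.49 for btg2 and 1.2003 for gadd45aa. With smad1-KD replicate 1 left out, sesn1 was at -0.85.

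The largest was mdm2, with 25.8 and 30.9 TPM in the control-MO libraries and 90.9 and 91.02 TPM in the smad1-KD libraries (1.65, SE 0.49, and 2.03 relative to all genes). Levels of sesn3 were 6.03 and 7.79 against 27.7 and 15.8 TPM (1.48, SE 0.54, and 1.86 relative to all genes). For ccng1 the control-MO libraries held 254 and 262 TPM and the smad1-KD libraries 716 and 388 TPM (1.03, SE 0.45, and 1.41 relative to all genes). In sesn3 and ccng1, as in tp53inp1 and gadd45aa, smad1-KD replicate 1 was the higher of the pair.

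Levels of tp53inp1 were 25.7 and 23.7 TPM in the control-MO and 75.6 and 37.6 TPM in the smad1-KD libraries, a log2 difference of 1.08 (SE 0.54). For gadd45aa they were 14.0 and 15.8 against 35.5 and 21.5 TPM, a difference of 0.85 (SE 0.53), and for btg2 49.3 and 60.9 against 77.6 and 106 TPM, a difference of 0.71 (SE 0.49). The groups did not overlap for these 3 genes. For sesn1 the control-MO libraries, at 44.3 and 43.7 TPM, lay between the smad1-KD libraries, at 69.6 and 23.9 TPM. Its difference was -0.10 (SE 0.59), 0.28 relative to all genes, 0.31 with quantile normalization and 0.35 with TMM-style scaling.

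In the same libraries the p21 gene cdkn1a overlapped, with 61.4 and 53.1 TPM against 72.2 and 27.8 TPM (-0.34, SE 0.57, and 0.04 relative to all genes). Both smad1-KD libraries were below both control-MO libraries for mdm4, at means of 15.4 and 7.93 TPM (-0.89, SE 0.52, and -0.51 relative to all genes, adjusted p in limma 0.645).

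Of the 43 other p53 targets tested in the knockdown at 1 dpf, 18 were above 0, against 23.8% of all genes. The groups were separated upward for 12 and downward for 15, against 5.57% and 34.7% of all genes. Their median was -0.19 as fitted, against -0.38 for all genes. Over 12 alternatives it ran from -0.62 to 0.29 and changed sign in 3. In those 3 it was 0.29 without smad1-KD replicate 2, 0.24 with quantile normalization and 0.13 with TMM-style scaling. Limma without the block called 0 of them, with 4 at an unadjusted p under 0.05, against 9.90% of all genes. With the block it called 1 higher (sat1a.1) and 2 lower (gadd45gb.1 and tp53i11b), against 5.05% of all genes called. Pairing was not established in the knockdown. Among the paralogues, gadd45gb.1 had means of 62.9 and 4.52 TPM (-3.67, SE 0.58, adjusted p in limma 0.0633), while gadd45ab (1.12, SE 0.52), gadd45ba (0.99, SE 0.48) and gadd45ga (1.02, SE 0.50) stood higher in both smad1-KD libraries. For sesn2 both smad1-KD libraries were lower, at means of 42.7 and 20.5 TPM (-1.12, SE 0.56). The polyamine gene sat1a.1 had means of 0.197 and 8.93 TPM (2.54, SE 0.77, adjusted p in limma 0.255), and tp53i11b had 9.12 and 0.737 TPM (-2.61, SE 0.54, adjusted p in limma 0.108). For bbc3 the groups overlapped, at 7.25 and 9.73 against 21.4 and 8.13 TPM.

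**Figure D5:**
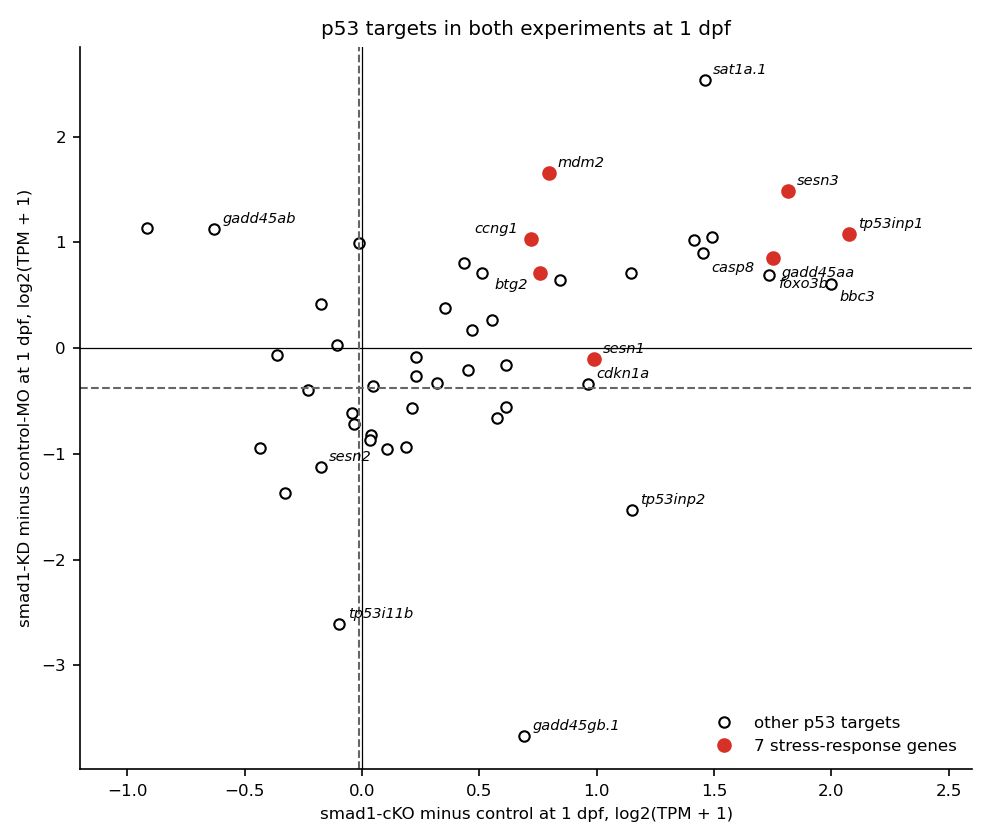
Each point is a gene, with its log2(TPM + 1) difference in the knockout at 1 dpf on the horizontal axis and in the knockdown at 1 dpf on the vertical axis, for the 7 genes and the 42 other p53 targets tested in both, with dashed lines at the medians of all genes. Of the 7 genes, 6 lie right of and above 0, and sesn1 lies right of 0 at -0.10 on the vertical axis.

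Blood and muscle markers differed strongly between these 4 libraries. Germ cell genes summed to 5349 and 1621 TPM in the control-MO libraries and 4918 and 1104 TPM in the smad1-KD libraries. Of these, 1 of 12 tested was above 0, against 23.8% of all genes. In each of the 4 libraries the blood markers summed to more than the germ cell genes. Blood markers summed to 21900 and 7646 TPM in the control-MO libraries and 36306 and 79582 TPM in the smad1-KD libraries, with 12 of 13 tested above 0 and none at 0 in either group. Muscle markers summed to 898 and 1442 TPM against 146 and 82.1 TPM, with 0 of 14 tested above 0 and 1 of 16, myf5, at 0 in both smad1-KD libraries. Skin markers summed to 2628 and 2161 TPM against 1213 and 3223 TPM, neural markers to 192 and 357 TPM against 143 and 241 TPM, and endoderm, yolk and liver markers to 96.1 and 111 TPM against 72.2 and 75.4 TPM. Of these 3 lists, the markers at 0 in both libraries of a group were apoa4b.1, ttr and serpina1l in smad1-KD. Immediate-early genes had 20 of 23 tested above 0, against 23.8% of all genes, with sums of 906 and 1232 TPM against 964 and 1792 TPM. Their median difference was 0.35, against -0.38 over all genes. The part of these cells, and of a response to handling and sorting, in the differences of the 7 genes was not tested. The summed level of the 7 genes was 419 and 445 TPM in the control-MO libraries and 1093 and 683 TPM in the smad1-KD libraries.

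At 75% epiboly no such separation was seen in the knockout. All 7 genes overlapped between smad1-cKO and control PGCs, and 0 of the 7 had a difference above 0, against 43.3% of the 13006 genes tested. Of those genes, 1.85% were separated upward and 3.36% downward. The differences ran from -1.09 (SE 1.24) for gadd45aa and -1.05 (SE 0.52) for sesn1 to -0.07 (SE 0.56) for mdm2. Control replicate 2 was the highest of the 6 libraries for all 7 genes, against 19.6% of all genes tested. It held 65.8 TPM of mdm2, where the other 2 controls held 22.9 and 14.2 TPM and the smad1-cKO libraries 38.6, 20.7 and 23.2 TPM. For tp53inp1 it held 54.8 TPM, beside 10.6 and 14.7 TPM in the other controls and 16.8, 15.8 and 16.1 TPM in the smad1-cKO libraries. Without that library the median difference of the 7 genes was 0.24 in place of -0.16. Leaving out the highest control can only raise these differences, so nothing is read from that rise. Over 14 alternatives the median ran from -0.73 to 0.24 and changed sign in this 1. At this stage germ cell genes summed to 18145, 23275 and 4710 TPM in the controls and 12273, 34924 and 5597 TPM in the smad1-cKO libraries. Endoderm, yolk and liver markers summed to 449, 938 and 2912 TPM against 838, 457 and 1227 TPM. The part of this spread in the differences of the 7 genes was not tested.

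The other 5 genes also overlapped. Levels of sesn3 were 3.75, 33.5 and 21.3 TPM in the controls and 24.5, 8.79 and 9.62 TPM in the smad1-cKO libraries. For gadd45aa, control replicate 3 and smad1-cKO replicate 2 were listed at 0, beside 13.1 and 43.1 TPM and 15.9 and 2.80 TPM. For sesn1 the values were 37.5, 56.2 and 19.2 TPM against 23.0, 15.9 and 11.3 TPM, and all 3 same-numbered differences were below 0. Levels of ccng1, at 244, 300.2 and 134 TPM against 294, 213 and 133 TPM, and of btg2, at 36.2, 49.4 and 13.9 TPM against 23.9, 24.4 and 33.1 TPM, showed no order between the groups. Of the 36 other p53 targets tested, 16 were above 0, and limma called 0, with 1 at an unadjusted p under 0.05, against 1.81% of all genes.

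In the knockdown at 75% epiboly 6 of the 7 genes overlapped. The exception was sesn3, at 26.9 and 17.9 TPM in the control-MO and 8.74 and 6.67 TPM in the smad1-KD libraries, a log2 difference of -1.41 (SE 0.68). Among all 12968 genes tested, 14.9% had both smad1-KD libraries below both control-MO libraries and 7.37% had both above. At this stage smad1-KD replicate 1 was the highest of the 4 libraries for 49.3% of the genes tested and smad1-KD replicate 2 the lowest for 46.4%. The other differences ran from -0.42 (SE 0.79) for gadd45aa to 0.36 (SE 0.70) for tp53inp1, and those of mdm2 and btg2 were -0.01 and -0.03. For mdm2 the values were 21.5 and 49.2 TPM against 42.2 and 24.7 TPM, and for btg2 72.9 and 46.2 TPM against 99.4 and 32.4 TPM. Germ cell genes summed to 1381 and 1704 TPM in the control-MO and 2848 and 1088 TPM in the smad1-KD libraries. Endoderm, yolk and liver markers summed to 2632 and 1279 TPM against 632 and 671 TPM, and their part in these differences was not tested.

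Levels at the 2 stages come from tables that may have been normalized separately, so the changes between them are descriptions. In control PGCs 1 of the 7 genes, ccng1, was separated between the stages, at 226 ± 84.5 TPM at 75% epiboly and 763 ± 233 TPM at 1 dpf (SD, n = 3 each), a 3.37-fold higher mean. For mdm2, tp53inp1 and gadd45aa the stages overlapped only through control replicate 2 at 75% epiboly, at 65.8, 54.8 and 43.1 TPM. The lowest 1 dpf controls of these genes were at 33.6, 21.6 and 36.3 TPM. Among the 16536 genes with a mean of 1 TPM or more in the control libraries, 48.3% had every 1 dpf library above every 75% epiboly library and 13.7% had every one below. In smad1-cKO PGCs all 7 genes were higher in every library at 1 dpf than in any at 75% epiboly, from 2.64-fold for btg2 and 3.10-fold for sesn3 to 8.76-fold for tp53inp1. Of 16456 genes in the same PGCs, 49.5% were separated upward and 12.7% downward. Nothing is read from the contrast with the controls, since the 7 genes were picked with results of these data known. The 35.02-fold ratio of gadd45aa rests on a 75% epiboly group with 1 library listed at 0.

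In control-MO PGCs the stages differed in both directions. Both 1 dpf libraries were above both 75% epiboly libraries for sesn1, by 3.56-fold, and tp53inp1, by 1.80-fold, and below for sesn3, by 3.24-fold, and for ccng1. Of 16567 genes, 58.0% were separated upward and 18.5% downward. In smad1-KD PGCs all genes but btg2 were separated upward, with ratios from 2.18 for ccng1 to 4.93 for sesn1, against 36.4% of 15677 genes upward and 16.9% downward.

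The order of the levels was stable at its top. In all 8 groups ccng1 was the most abundant of the 7 genes, at 213 to 1262 TPM in the mean, above 97.3% to 99.7% of the detected genes. In the knockout experiment at 1 dpf the controls followed the order ccng1, gadd45aa, mdm2, sesn1, btg2, tp53inp1 and sesn3. Of these, the ranges of gadd45aa, mdm2, sesn1, btg2 and tp53inp1 overlapped one another, so their order is not set beyond the spread. In smad1-cKO PGCs at 1 dpf the order was ccng1, gadd45aa, tp53inp1, mdm2, sesn1, btg2 and sesn3, with each gene from gadd45aa to sesn1 overlapping its neighbour, and tp53inp1 had moved from the sixth to the third place. At 1 dpf sesn3 was the least abundant of the 7 genes in all 4 groups.

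The genes closest to each of the 7 in pattern were sought among 8397 genes, by the root mean square difference over the 8 group means of log2(TPM + 1), each centred on its own mean. For tp53inp1 the nearest was bbc3 (0.32), followed by rreb1b (0.40). Nearest to mdm2 were fthl29 (0.25) and reep3b (0.27), and nearest to sesn3 were ncapd3 (0.45) and reep3b (0.51). For ccng1 they were ccz1 (0.31) and fibpa (0.32). For sesn1 they were fuca1.2 (0.26) and clk2a (0.28), for btg2 lsr (0.21) and mtdha (0.21), and for gadd45aa entr1 (0.47) and rspo1 (0.51). None of the 7 genes was among the 2 nearest of another. The closest pair among them was mdm2 and btg2 (0.45), and the most distant was btg2 and gadd45aa (1.47). With 8 groups and many genes, small distances arise readily, and they are given as a description.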

How the data were processed

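RNA from sorted PGCs was measured in 20 libraries, made with a full-length amplification kit for small cell numbers and a transposase kit, per the labels' protocols. The authors deposited TPM, with 1 table per stage and experiment and 32520 genes in each. STAR 2.7.10b and StringTie 2.2.1 are named, without roles, per the submitters' processing notes, as is the build GRCz11. Genome positions, sequences and the amplicon libraries of the series were not used here. The names of 896 genes are blank, and 533 names stand for several gene IDs and were left out of the lists. TPM keep no counts, so depth, intervals and detection limits are unknown.

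Each table was fitted alone with limma 3.58.1 in R 4.3.3 with an intensity trend, on log2(TPM + 1), keeping genes whose TPM averaged 1 or more, with Benjamini-Hochberg adjustment over all genes tested (threshold 0.05). The 7 genes, the lists and the alternatives were chosen with earlier results of these data known. Genes named beside the 7 are the core of the pathway, and of each list the genes called in any fit, up to 4 with the smallest unadjusted p in the knockout at 1 dpf and the 3 with the highest mean TPM; paralogues were added, and skin, blood and other cell type lists are given as sums. Same-numbered libraries were taken as pairs where, with at least 3 pairs, every pair's deviations from its group means had a correlation over 0.1. In the knockout this held at 75% epiboly (0.176, 0.196 and 0.417) and at 1 dpf (0.265, 0.105 and 0.272), and the pairing comes from these correlations, not from the labels. With 2 pairs per stage, the knockdown cannot meet this rule. One gene of the pathway is not reported here and was left out of the lists. No libraries were identical. The mean estimated change was checked on simulated data, with independent libraries and the fitted spreads shuffled over genes. The intensity trend and the pairs were not covered by that check. As alternatives, the scale was changed (quantile normalization, TMM-style scaling, or no mitochondrial or ribosomal features), the pseudocount was set to 0.1, the filter was dropped or raised to 5 TPM, the trend was left out, the replicate number was a block, and each library was left out in turn. Python 3.11.15 with matplotlib 3.10.9 drew the figures.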

Additional observations from a re-analysis of the deposited data

Results flagged for a closer look

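Opposite shifts without overlap in a pair of comparisons were seen for 5 of the genes named, and the differences between the comparisons were not tested. The share of all genes with such opposite shifts was not counted, so nothing is read from the 5. Of all genes tested in the knockdown, 14.9% were separated downward and 7.37% upward at 75% epiboly. At 1 dpf the shares were 34.7% and 5.57%. In the knockout at 75% epiboly, 3.36% were separated downward. In the knockdown, sesn3 stood lower in both smad1-KD libraries at 75% epiboly (log2 difference -1.41) and higher in both at 1 dpf (1.48). The ribosomal protein gene rps27l did the same (-1.002 and 0.64), as did the immediate-early genes jun (-1.60 and 0.42) and klf2a (-2.19 and 0.32), which stood at 0.998 and 0.924 TPM in the smad1-KD libraries at 75% epiboly. The serine synthesis gene phgdh stood higher at 75% epiboly (0.43) and lower at 1 dpf (-1.83) in the knockdown, and lower in the knockout at 75% epiboly (-1.02). With groups of 2 or 3 libraries, no library was tested as an outlier within its group. Statements that a library stood apart, and values without it, are descriptions.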

How the results depend on the processing

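Over 14 alternatives in the knockout at 1 dpf, the differences of all 7 genes stayed above 0, from 0.46 to 1.04 for mdm2, 1.80 to 2.28 for tp53inp1, 0.89 to 1.15 for sesn1, 1.65 to 1.99 for sesn3, 0.46 to 0.93 for ccng1, 0.59 to 0.94 for btg2 and 1.38 to 2.06 for gadd45aa. The number of the 7 genes separated upward was 5 to 7 without any 1 library. Leaving out a library cannot lower this number from 5, so nothing is read from it. Nor can it change the sign of a separated gene, here or in the knockdown. The filter, the trend and the block leave the difference of a gene as it was. Nothing is therefore read from signs that stayed the same under these settings. Over 12 alternatives in the knockdown at 1 dpf, sesn1 changed sign in 3, ranging from -0.85 to 0.65, and the other 6 genes in none (mdm2 1.53 to 2.11, sesn3 1.097 to 1.91). At 75% epiboly the sign changed in 15 of 98 values in the knockout and 12 of 84 in the knockdown. These totals include the settings that cannot change a difference.

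Counts of called genes over all genes depended on the fit. In the knockout at 1 dpf the replicate block gave 14 in place of 1, and leaving out 1 library gave 1 to 46, with 46 without smad1-cKO replicate 3 and 2 without control replicate 1. In the knockdown at 1 dpf a minimum mean of 5 TPM gave 43, leaving out mitochondrial and ribosomal features 58 and no trend 10 in place of 0. Leaving out 1 library gave 0 to 41, with 41 without control-MO replicate 1 and 5 without control-MO replicate 2, where the lone library is assumed to vary like the others. The causes were not tested. With the replicate block the knockdown gave 27 calls at 75% epiboly (0.208% of the genes tested) and 866 at 1 dpf (5.05%), though its libraries share only a number (correlations 0.0778 and 0.602). Depth could not be judged from TPM.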
